A study of Homo sapiens with 27 samples.

Results

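The genes described here are the interferon regulatory factors, a family of transcription factors. They are IRF1, IRF2, IRF3, IRF4, IRF5, IRF7, IRF8 and IRF9, taken by symbol from the deposited count table, and all 8 of 8 were present among 23230 gene symbols. Values were read in 27 RNA-seq libraries from 3 human tumour cell lines. SK-N-SH was derived from neuroblastoma. QGP-1 and BON-1 were derived from neuroendocrine tumours of the pancreas.

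Each line was transfected with 1 of 3 plasmids built on the expression vector pCMV6-AC. The control carried no MAML3 sequence and is called vector below. The second plasmid held the full-length coding sequence of MAML3 (FL), a Mastermind-like coactivator of Notch signalling, and the third held the MAML3 sequence without its first exon (dEx1). FL and dEx1 carried a V5 tag at the C terminus, which the vector control did not. RNA was taken on day 3 after transfection, and each of the 9 groups has 3 libraries labelled as biological replicates. All libraries, controls included, therefore come from lipid-transfected, plasmid-carrying cells, and no untransfected group is among them. The lines were grown in different media (EMEM for SK-N-SH, RPMI for QGP-1, DMEM/F12 for BON-1), so line and medium cannot be told apart. The share of cells that took up a plasmid is not given in the sources used here.

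Interferon regulatory factors share a DNA-binding domain that recognises GAAA repeats in the promoters of interferon and interferon-induced genes. IRF3 and IRF7 are activated by kinases downstream of nucleic acid sensors and switch on the interferon genes. Secreted interferon then acts through receptors, JAK kinases and STAT factors, which join IRF9 to form ISGF3, the complex that drives antiviral genes and also IRF7 itself. IRF1 is itself induced by interferon and activates antigen presentation genes, and IRF2 is best known for opposing it on shared sites. IRF4 and IRF8 are factors of lymphoid and myeloid cells, and IRF5 acts in myeloid cells downstream of Toll-like receptors.

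The MAML3 row separated the vector libraries from the FL and dEx1 libraries in each line. It did not separate FL from dEx1, whose ranges overlapped in all 3 lines, so it is no check of those 2 labels. It was listed at 16.9 to 30.3 CPM (counts scaled to the size of each library) in SK-N-SH vector libraries, 7858 to 15840 in FL and 4919 to 13893 in dEx1 libraries. In BON-1 and QGP-1 the vector libraries lay between 38.5 and 93.7 CPM and the FL and dEx1 libraries between 2231 and 8296. Libraries held 73026244 to 120254457 count units, with similar ranges in the 3 lines. Replicate 3 of each SK-N-SH group stood apart from the other replicates on the second principal component of that line, and vector replicate 3 lay on the dEx1 side of the first. BON-1 vector replicate 1 stood alone, and the QGP-1 libraries fell into a pair of clusters that did not follow the plasmids. Vector replicate 1 lay with replicates 1 and 2 of FL and dEx1, and vector replicates 2 and 3 with replicate 3 of FL and dEx1. The clusters were therefore unevenly spread between the vector group and the others. Neuroendocrine markers were abundant in BON-1 and QGP-1 (summed 3759 to 40692 CPM), islet markers were near 0 in SK-N-SH (at most 1.08 CPM) and mesenchymal markers were near 0 in QGP-1 (at most 0.50 CPM). Of 10 leukocyte markers in the table, CD68 reached 537 CPM (means 278 in SK-N-SH, 55.7 in BON-1 and 0.89 in QGP-1) and CSF1R 10.6 CPM, while CD3E and MS4A1 were 0 in every library and PTPRC reached at most 1.09 CPM.

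The upstream sequences of IRF1 and IRF9 are shown because, of the members with an entry, these are the ones whose levels differed between dEx1 and FL in SK-N-SH (values below). They come from RefSeq (GRCh38.p14), whose table matched 5 of the 8 members (IRF1, IRF4, IRF5, IRF8 and IRF9) and not IRF2, IRF3 and IRF7. Each run holds the 250 bases before the annotated start, 5′ to 3′ on the gene's strand. Capitals mark matches, on either strand, to the STAT element GAS (TTCNNNGAA), the IRF core (AANNGAAA) or the kappaB consensus.
IRF1, chr5:132490774-132491023, minus strand: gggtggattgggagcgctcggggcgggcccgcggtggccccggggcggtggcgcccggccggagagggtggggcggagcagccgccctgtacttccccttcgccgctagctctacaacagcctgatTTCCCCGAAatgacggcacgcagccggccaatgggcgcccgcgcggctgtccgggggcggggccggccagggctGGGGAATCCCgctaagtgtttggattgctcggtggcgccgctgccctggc
IRF9, chr14:24161015-24161264, plus strand: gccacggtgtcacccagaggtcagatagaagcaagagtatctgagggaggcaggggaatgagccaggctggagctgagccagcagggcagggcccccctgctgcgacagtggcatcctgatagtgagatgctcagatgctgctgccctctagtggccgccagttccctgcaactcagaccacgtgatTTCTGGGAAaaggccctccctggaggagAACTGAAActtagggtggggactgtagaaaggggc
The IRF1 window held the GAS match TTCCCCGAA, 124 to 116 bases before the start, and the kappaB match GGGGAATCCC, 50 to 41 bases before it. The IRF9 window held the GAS match TTCTGGGAA, 63 to 55 bases before the start, and the IRF core match AACTGAAA, 35 to 28 bases before it. IRF8 held 2 IRF core matches before its first start (AAAGGAAA and TTTCAGTT), IRF5 held 1 before its start number 3 (TTTCGTTT), and the IRF4 window held none of the 3 motifs. Over 35116 promoter windows of the same length, 6.57% held a GAS match, 20.3% an IRF core match and 9.96% a kappaB match. A match describes letters in a window and is no measured binding site.

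The family was expressed in a different pattern in each line. SK-N-SH vector cells had high IRF1, IRF2 and IRF7, BON-1 cells carried IRF8 and the highest IRF3, and QGP-1 cells had low levels of most members. IRF9 had the highest mean per transcript length in all 9 groups, with ranges that overlapped those of IRF3 in the FL and dEx1 groups of QGP-1, and IRF4 was at or near 0 in all 27 libraries. These are levels after TMM scaling over all libraries, and comparisons between genes are made per kilobase of the MANE Select transcript (GENCODE models on GRCh37, the build called hg19 in the submitters' processing notes).

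**Figure D1:**
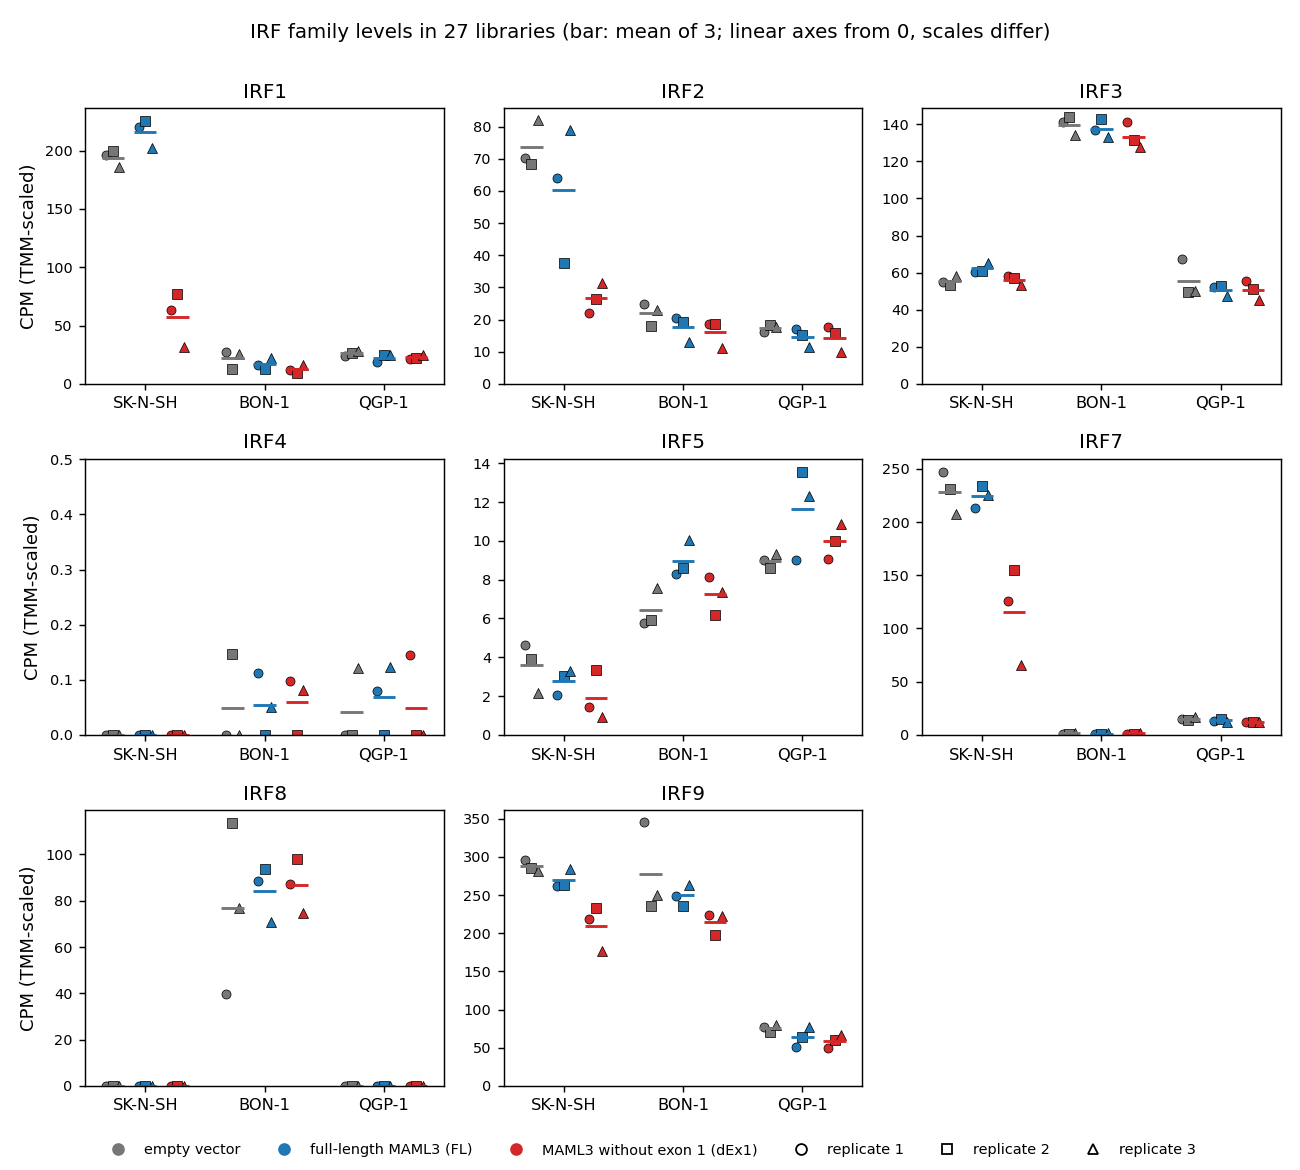
CPM of the 8 members (linear axes from 0, a different scale per gene) in 27 libraries, by line and plasmid, with a bar at the mean of 3 replicates. IRF1 and IRF7 were high in SK-N-SH and lower in its 3 dEx1 libraries, and IRF8 was read in BON-1 only, apart from 5 units in 1 SK-N-SH library.

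IRF1 (chr5:131817301-131826465, minus strand, hg19, as all gene positions below) read 196, 199 and 186 CPM in the SK-N-SH vector libraries. It read 26.9, 13.1 and 25.9 CPM in BON-1 and 23.6, 26.4 and 28.1 CPM in QGP-1. SK-N-SH thus stood above both other lines with no overlap, by 8.83-fold over BON-1 (log2 difference 3.14, SE 0.30, adjusted p = 1.08e-08, edgeR quasi-likelihood test) and by 7.44-fold over QGP-1 (log2 2.89, SE 0.30, adjusted p = 2.97e-08). IRF2 (chr4:185308883-185395704), the factor that competes with IRF1, was also highest in SK-N-SH: 70.4, 68.3 and 82.0 CPM in SK-N-SH, 25.0, 17.9 and 22.9 in BON-1 and 16.1, 18.1 and 17.8 in QGP-1. It was 3.36-fold higher in SK-N-SH than in BON-1 and 4.24-fold higher than in QGP-1 (adjusted p = 8.41e-06 and 9.00e-07). Neither IRF1 nor IRF2 passed the test between QGP-1 and BON-1 (log2 0.25 and -0.34, adjusted p = 0.490 and 0.301).

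Relative to BON-1, IRF3 and IRF7, the partners that carry the signal from nucleic acid sensors, went in opposite directions. IRF3 (chr19:50162829-50169114) was highest in BON-1, at 141, 144 and 134 CPM, against 54.8, 53.4 and 58.2 in SK-N-SH and 67.4, 49.3 and 50.2 in QGP-1. It was 2.52-fold lower in SK-N-SH than in BON-1 (log2 -1.33, SE 0.11, adjusted p = 7.72e-10) and 2.51-fold lower in QGP-1 than in BON-1 (adjusted p = 1.57e-09). IRF3 was not called between SK-N-SH and QGP-1 (log2 -0.006, SE 0.11, adjusted p = 0.984, edgeR). IRF7 (chr11:612555-615950) read 247, 231 and 207 CPM in SK-N-SH but only 1.22, 1.20 and 1.90 in BON-1. QGP-1 lay between, at 14.6, 14.3 and 17.2 CPM. The SK-N-SH level of IRF7 was 158-fold that of BON-1 (log2 7.30, SE 0.38, adjusted p = 8.92e-13), the lowest adjusted p of any member in that comparison, and 14.9-fold that of QGP-1 (log2 3.89, SE 0.32, adjusted p = 9.63e-10). All 3 pairs of lines differed for IRF7, since QGP-1 was also 10.6-fold above BON-1 (adjusted p = 1.52e-08).

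IRF9 (chr14:24630474-24635774), the DNA-binding part of ISGF3, did not follow IRF7. It read 296, 286 and 282 CPM in SK-N-SH and 346, 236 and 250 in BON-1, ranges that overlap (log2 0.05, SE 0.15, adjusted p = 0.792). The overlap comes from BON-1 replicate 1, the library that stood alone, and the other BON-1 libraries lay below every SK-N-SH library. IRF9 was not called between these lines in any of 13 alternatives (lowest adjusted p 0.188). QGP-1 held 76.5, 70.0 and 80.2 CPM, below every library of the other lines. The difference was 3.81-fold against SK-N-SH and 3.67-fold against BON-1 (adjusted p = 7.11e-10 and 2.15e-09).

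The remaining members are the more tissue-restricted ones. IRF8 (chr16:85932768-85956212), known from myeloid and B cells, was read in all 9 BON-1 libraries at 39.5 to 113 CPM (median 87.4). It was 0 in all 9 QGP-1 libraries and in 8 of 9 SK-N-SH libraries, the last holding 5 units. Against a floor of 15 units per library, the BON-1 vector mean of 76.7 CPM was at least 458-fold above SK-N-SH and at least 477-fold above QGP-1. Within BON-1 the low vector value of 39.5 CPM belongs to replicate 1, the library that stood apart, and the other vector libraries held 113 and 77.1 CPM. Summed leukocyte markers in BON-1 ran from 33.2 to 111 CPM, nearly all of it CD68 (mean 55.7 CPM), and their part in the IRF8 level was not tested. The myeloid markers CSF1R and CD14 had means of 3.62 and 1.40 CPM there, the B cell marker CD79A 0.98 and PTPRC, the pan-leukocyte marker, 0.16.

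IRF4 (chr6:391752-411443), the lymphoid partner of IRF8, was 0 in all SK-N-SH libraries and reached at most 0.15 CPM elsewhere. Its counts never exceeded the floor of 15 units, so no fold change is given. IRF5 (chr7:128577981-128590092) was low in all lines, at 2.16 to 4.65 CPM in SK-N-SH vector libraries, 5.77 to 7.58 in BON-1 and 8.60 to 9.31 in QGP-1. The 3 ranges do not overlap, but IRF5 was not called between QGP-1 and BON-1 (log2 0.48, SE 0.33, adjusted p = 0.243, edgeR). SK-N-SH was 2.50-fold below QGP-1 (adjusted p = 0.00197) and 1.79-fold below BON-1 (adjusted p = 0.0355), and the latter call was lost in 5 of 13 alternatives, with an adjusted p of 0.180 without SK-N-SH vector replicate 3.

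Between vector groups, 6 of 8 members were called for SK-N-SH against BON-1, 3 higher and 3 lower. Of all genes tested, 60.6% were called in that comparison, 29.7% higher and 30.9% lower. For SK-N-SH against QGP-1, 5 of 8 members were called, 4 higher and 1 lower, beside 60.6% of all genes (30.6% higher, 30.0% lower). For QGP-1 against BON-1, 4 of 8 were called, 1 higher and 3 lower, beside 51.4% of all genes (23.7% higher, 27.7% lower). With 8 genes these shares are near the background, so the count says nothing particular about the family, and the content lies in which member went which way.

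**Figure D2:**
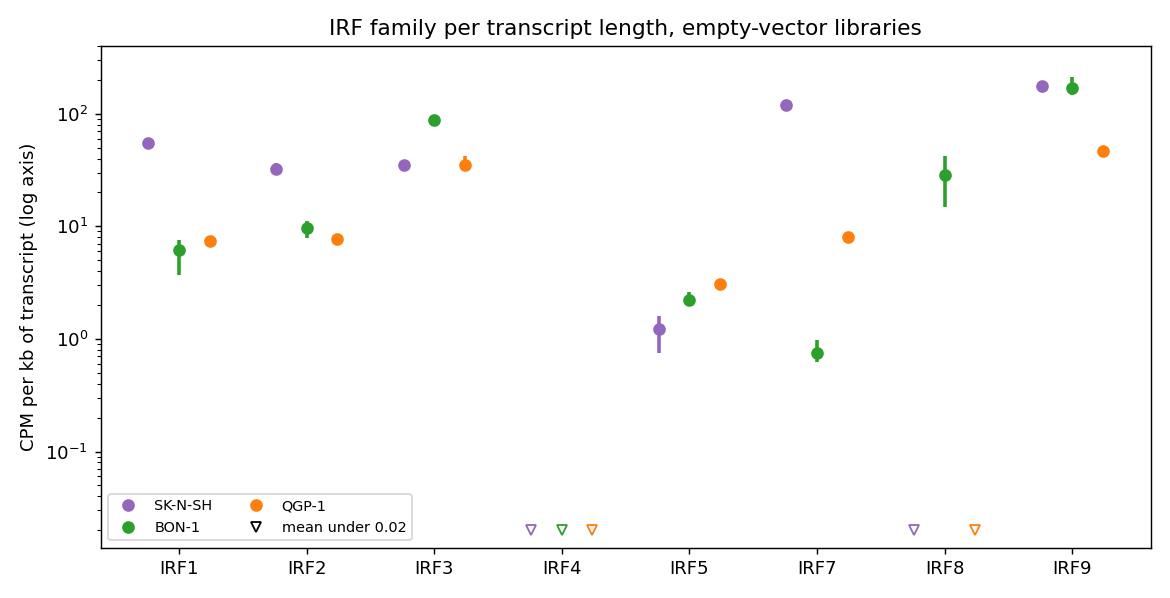
CPM per kilobase of transcript (log axis) of each member in the vector libraries of the 3 lines, points at the mean of 3 and lines from the lowest to the highest library; open triangles mark means under 0.02. IRF9 is highest in every line, while IRF7 spans 0.75 in BON-1 to 119 in SK-N-SH.

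Per transcript length, the order in SK-N-SH vector cells was IRF9 (mean 177 CPM per kb), IRF7 (119), IRF1 (54.5), then IRF3 (34.7) and IRF2 (32.6), whose library ranges overlap. IRF5 (1.24) followed at a much lower level. In BON-1 the order was IRF9 (171), IRF3 (87.6), IRF8 (28.7), IRF2 (9.71), IRF1 (6.18), IRF5 (2.22) and IRF7 (0.75), with no overlap between neighbours. In QGP-1, IRF9 (46.5) and IRF3 (34.9) led, and IRF7, IRF2 and IRF1 lay together between 7.33 and 7.99 CPM per kb with each range overlapping the next. IRF7 thus ranked second in SK-N-SH and next to last in BON-1.

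In SK-N-SH, IRF1 and IRF2 were lower with dEx1 than with the vector. IRF1 fell to 63.6, 77.2 and 31.5 CPM from 196, 199 and 186 in the vector libraries, a 3.36-fold decrease (log2 -1.75, SE 0.27, adjusted p = 0.0140, edgeR). Every dEx1 library lay below every vector library, and replicate 3 was the lowest, at 16.3% of the vector mean. IRF2 fell to 22.0, 26.4 and 31.4 CPM, a 2.75-fold decrease (log2 -1.46, SE 0.25, adjusted p = 0.0185), again with no overlap. The activator and its competitor therefore fell together at the RNA level. In bulk RNA, less transcript per cell and fewer cells carrying the transcript cannot be told apart.

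IRF7 and IRF9 read lower in every dEx1 library but missed the threshold in the main fit. IRF7 read 126, 155 and 65.7 CPM with dEx1 against 247, 231 and 207 with vector (log2 -0.98, SE 0.26, adjusted p = 0.0689). IRF9 read 219, 233 and 177 CPM against 296, 286 and 282 (log2 -0.45, SE 0.11, adjusted p = 0.0519). Both had groups that do not overlap, and in both the lowest library was replicate 3. The miss depended on the fit: IRF7 was called lower in 6 of 20 alternatives and IRF9 in 9 of 20. Both passed with the replicate block (edgeR, adjusted p = 0.0307 and 0.0342) and with the DESeq2 test (adjusted p = 0.00422 and 0.00211). IRF3 read 57.9, 57.1 and 53.1 CPM with dEx1 and 54.8, 53.4 and 58.2 with vector, overlapping ranges and a log2 difference of 0.02 (SE 0.08, adjusted p = 0.910).

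The low member IRF5 gave wide errors. It read 1.43, 3.33 and 0.90 CPM with dEx1 and 4.65, 3.93 and 2.16 with vector (log2 -0.92, SE 0.49, adjusted p = 0.299). One library of the dEx1 group overlapped the vector range, and IRF5 was not called. IRF4 and IRF8 were at 0 in all 6 libraries compared.

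In this comparison 2 of 6 members tested were called, both lower, and 4 had an unadjusted p under 0.05. Of all 14674 genes tested, 4.47% were called, 0.831% higher and 3.64% lower, and 3328 had an unadjusted p under 0.05. The calls were sensitive to the libraries used. IRF1 lost its call without vector replicate 1 (adjusted p = 0.0550) or dEx1 replicate 1 (0.0579), with fitted log2 changes of -1.74 and -1.84. IRF2 lost its call without vector replicate 1 or 2 or dEx1 replicate 1 or 2 (adjusted p 0.0600 to 0.0794). With replicate 3 of all 3 SK-N-SH groups left out, an alternative chosen after seeing the data, IRF1, IRF2, IRF7 and IRF9 were all called lower (adjusted p = 0.000946, 0.0102, 0.00740 and 0.0116). The leukocyte marker sum moved with the group too, from 225 to 324 CPM with vector to 81.2 to 96.7 with dEx1, almost all of it CD68, while PTPRC, CD3E and MS4A1 were at or near 0. Its part in the IRF values was not tested.

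**Figure D3:**
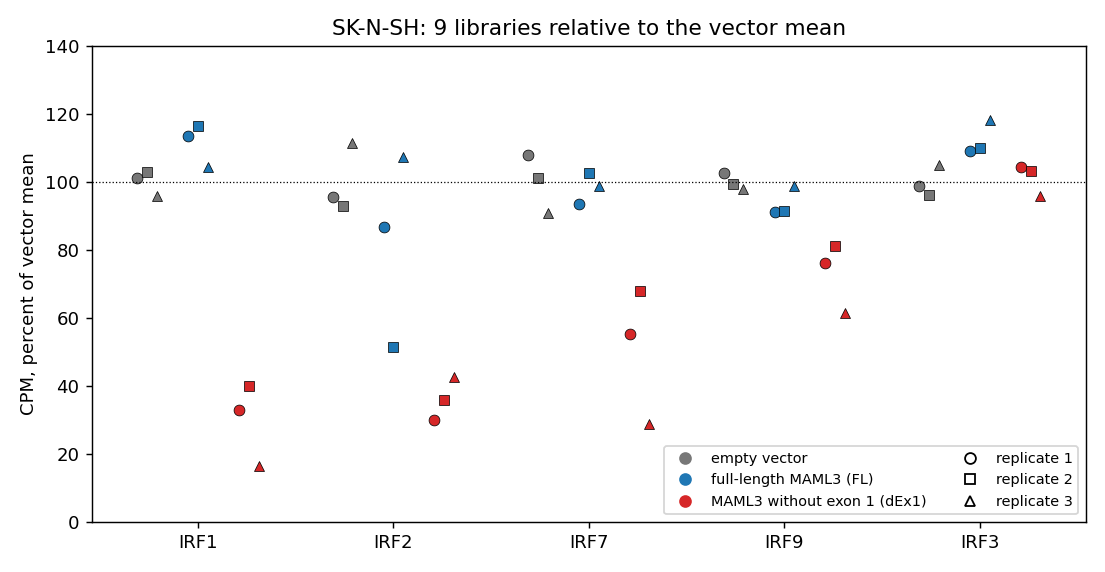
CPM of 5 members in the 9 SK-N-SH libraries as a percentage of the vector mean (linear axis from 0), coloured by plasmid and shaped by replicate. With dEx1, IRF1 lay at 16.3% to 39.8% and IRF9 at 61.4% to 81.1% of the vector mean, while IRF3 stayed at 95.8% to 105%.

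Full-length MAML3 gave no called member in SK-N-SH. IRF1 read 220, 226 and 202 CPM with FL, above all 3 vector libraries but by only 1.11-fold (log2 0.15, SE 0.26, adjusted p = 0.846). IRF7 read 213, 234 and 226 CPM (log2 -0.03, SE 0.25, adjusted p = 0.981) and IRF9 262, 263 and 284 CPM (log2 -0.09, SE 0.11, adjusted p = 0.749), both overlapping the vector range. IRF2 was scattered, at 63.8, 37.7 and 79.0 CPM (log2 -0.29, SE 0.25, adjusted p = 0.652). IRF3 read 60.5, 61.0 and 65.4 CPM, above every vector library (log2 0.17, SE 0.08, adjusted p = 0.380). IRF5 read 2.06, 3.05 and 3.29 CPM, overlapping its vector range. The edgeR test called 0 of 6 members and DESeq2 called 0, 0 had an unadjusted p under 0.05, and 1.74% of all genes were called. Of all 14674 genes tested, 2302 had an unadjusted p under 0.05.

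Set directly against each other in SK-N-SH, the constructs differed in more members. IRF1 was 3.74-fold lower with dEx1 than with FL (log2 -1.90, SE 0.27, adjusted p = 0.00247), the lowest adjusted p among the members, and this call held in all 20 alternatives run. IRF2 was 2.25-fold lower (log2 -1.17, SE 0.25, adjusted p = 0.0127), IRF7 1.93-fold lower (log2 -0.95, SE 0.26, adjusted p = 0.0300) and IRF9 1.28-fold lower (log2 -0.36, SE 0.11, adjusted p = 0.0445). In all 4 genes the dEx1 libraries lay below the FL libraries without overlap, but so did those of IRF3, which was not called. The share of all genes whose groups lay apart was not counted in any comparison. The leukocyte marker sum ran from 423 to 540 CPM with FL, above its vector range, and from 81.2 to 96.7 with dEx1, and its part in these values was not tested. IRF3 and IRF5 did not pass (log2 -0.15 and -0.56, adjusted p = 0.251 and 0.452).

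Thus 4 of 6 members were called, all 4 lower, beside 22.0% of all genes tested (10.5% higher, 11.5% lower). The call of IRF2 was lost without dEx1 replicate 1 (adjusted p = 0.0521). IRF7 lost its call in 5 of 20 alternatives (adjusted p up to 0.0781 without FL replicate 2) and IRF9 in 9 of 20 (up to 0.121 with all 27 libraries in 1 fit). The alternatives that ended the call of IRF7 were the fit of the 6 libraries alone and the loss of any FL replicate or of dEx1 replicate 1. For IRF9 these same 5, and the loss of vector replicate 1 or 2 or dEx1 replicate 3, ended it as well.

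**Figure D4:**
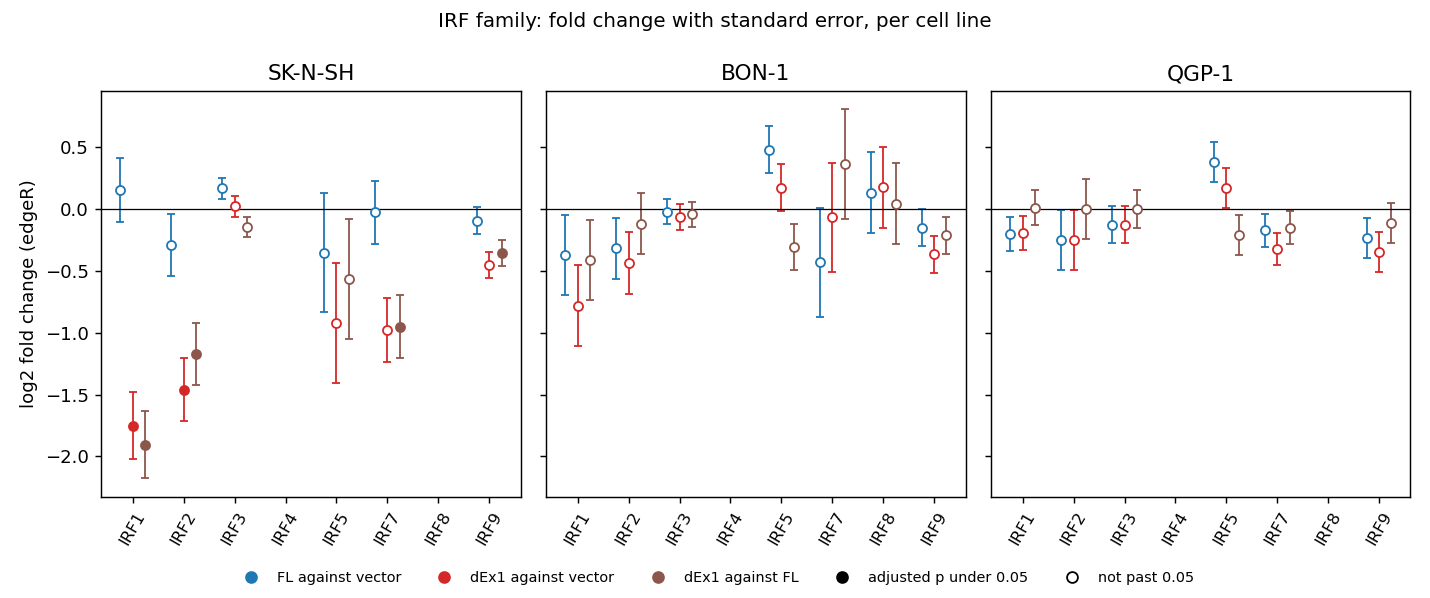
Fitted log2 fold change with its standard error for each member in the 3 comparisons of each line; filled points passed an adjusted p of 0.05, and members at or near 0 are left out. In SK-N-SH the filled points are IRF1 and IRF2 for dEx1 against vector and IRF1, IRF2, IRF7 and IRF9 for dEx1 against FL; BON-1 and QGP-1 have none.

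No member was called in BON-1. For dEx1 against vector, IRF1 read 12.2, 9.52 and 16.5 CPM against 26.9, 13.1 and 25.9, partly overlapping (log2 -0.78, SE 0.33, adjusted p = 0.916). That fit is unpaired, though same-numbered libraries pair in this line, and within each number IRF1 was lower with dEx1. IRF1 was not called in any of 18 alternatives, the paired fit among them (log2 -1.02 to -0.61). IRF9 read 223, 198 and 223 CPM against 346, 236 and 250, with all dEx1 libraries below all vector libraries (log2 -0.37, SE 0.15, adjusted p = 0.916). The 346 CPM belongs to vector replicate 1, the library that stood alone. IRF1 and IRF9 were the 2 members with an unadjusted p under 0.05 there. IRF8 kept overlapping ranges in all 3 groups, at 88.4, 93.5 and 71.0 CPM with FL and 87.4, 98.1 and 74.9 with dEx1 (log2 against vector 0.13 and 0.17, SE 0.33 for each).

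For FL against vector in BON-1, IRF5 was the member with an unadjusted p under 0.05, at 8.29, 8.61 and 10.0 CPM against 5.77, 5.94 and 7.58 (log2 0.48, SE 0.19, adjusted p = 0.928). IRF7 stayed between 0.77 and 2.08 CPM in all 9 libraries. edgeR called 0 of 7 members in FL against vector, in dEx1 against vector and in dEx1 against FL, beside 0.00671%, 0.0134% and 0% of all genes. At an unadjusted p under 0.05 there were 1, 2 and 0 members, beside 576, 429 and 156 of 14903 genes tested. DESeq2 called 0 members in each. Since almost no gene was called in this line, the absence of member calls says little about the family.

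No member was called in QGP-1 either, also not with a term for its pair of clusters, which the vector group shared unequally with the others. IRF7 read 11.8, 12.1 and 12.5 CPM with dEx1 against 14.6, 14.3 and 17.2 with vector, without overlap (log2 -0.32, SE 0.13, adjusted p = 1). IRF9 read 49.9, 60.2 and 66.7 CPM against 76.5, 70.0 and 80.2, also without overlap (log2 -0.35, SE 0.16, adjusted p = 1). IRF1 read 21.3, 22.2 and 24.4 CPM with dEx1 and 18.3, 25.0 and 24.4 with FL, each overlapping the vector range (log2 -0.19 and -0.20, SE 0.14 for each). IRF5 with FL read 9.03, 13.6 and 12.3 CPM (log2 0.38, SE 0.16, adjusted p = 0.970). For FL against vector, dEx1 against vector and dEx1 against FL, edgeR called 0 of 7 members, beside 0.0275%, 0.0207% and 0.0138% of all genes. At an unadjusted p under 0.05 there were 1, 1 and 0 members, beside 737, 527 and 186 of 14522 genes tested. DESeq2 called 0 members in each.

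Whether the response differed between lines was tested as a difference of effects in 1 model of all libraries. The dEx1 effect on IRF1 in SK-N-SH minus that in QGP-1 was -1.55 on the log2 scale (SE 0.40, adjusted p = 0.0916), and for IRF2 it was -1.20 (SE 0.37, adjusted p = 0.186). Against BON-1 the estimates were -0.97 for IRF1, -1.03 for IRF2 and -0.91 for IRF7 (adjusted p = 0.368, 0.294 and 0.443). For IRF9 they were -0.09 against BON-1 and -0.10 against QGP-1, with an SE of 0.21 for each. edgeR called 0 of 8 members in all 6 such differences, and the result depended on the fit. With replicate number as a block, which pairs libraries in BON-1 but was not taken to in SK-N-SH, the dEx1 effect differed for IRF1 against BON-1 (log2 -1.06, adjusted p = 0.0454) and for IRF1 and IRF2 against QGP-1 (log2 -1.62 and -1.15, adjusted p = 0.00473 and 0.0488). For the dEx1 effect, 0.332% of all genes were called for SK-N-SH against BON-1, 0.521% against QGP-1 and 0% between QGP-1 and BON-1, and for the FL effect 0.284%, 0.160% and 0.0118%. Members at an unadjusted p under 0.05 numbered 4, 3 and 0 for dEx1 and 0, 0 and 0 for FL. Of all 16883 genes tested, 1843, 1745 and 660 were under it for dEx1 and 1583, 1459 and 782 for FL. DESeq2 called 1 member in these 6 tests, IRF1 for the dEx1 effect in SK-N-SH against QGP-1 (log2 -1.55, adjusted p = 0.0111).

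The genes around the family were read from lists of upstream and downstream genes. In SK-N-SH with dEx1 against vector, 14 of 14 genes listed as IRF3 and IRF7 targets were called lower, beside 3.64% of all genes tested. Their median log2 change was -3.41, beside 0.01 for all genes tested. IFNB1, the interferon beta gene, read 22.1, 17.3 and 6.87 CPM with vector and 0.06, 0.70 and 0.06 with dEx1 (log2 -5.79, SE 0.99, adjusted p = 0.0174). IFNL1, an interferon lambda gene, went from a mean of 10.1 to 0.20 CPM (log2 -5.65, adjusted p = 0.0271), CXCL11, a T cell chemokine, from 68.1 to 1.53 (log2 -5.46, adjusted p = 0.00957) and TNFSF10, the death ligand TRAIL, from 18.9 to 0.45 (log2 -5.36, adjusted p = 0.00205). These 4 genes fell by more than either member that passed.

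Of genes listed as IRF1 targets, 18 of 21 tested were lower (median log2 -1.37, the same with 2 genes at 0 set at their bound) and none was higher. Beside these counts, 3.64% of all genes tested were called lower and only 0.831% higher. CASP1, the protease that matures interleukin 1 beta, read 26.7, 21.4 and 16.5 CPM with vector and 3.59, 3.28 and 2.07 with dEx1 (log2 -2.85, SE 0.26, adjusted p = 0.00301). APOL1 went from a mean of 47.6 to 8.40 CPM (log2 -2.49, adjusted p = 0.0105). CXCL9 and CIITA, the latter the master activator of MHC class II genes, were 0 in all 3 dEx1 libraries, from vector means of only 0.78 and 0.74 CPM. Against the floor they were at least 4.53-fold and at least 4.30-fold lower.

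Of genes listed as ISGF3 targets, 19 of 32 were lower (median log2 -1.14) and none was higher, beside 3.64% of all genes called lower and 0.831% higher. BST2, the antiviral tether, went from 147 to 18.3 CPM (log2 -3.00, SE 0.60, adjusted p = 0.0292), OAS2 from 476 to 70.2 (log2 -2.76, adjusted p = 0.0141), IFI27 from 281 to 57.9 (log2 -2.27, adjusted p = 0.0408) and XAF1 from 220 to 45.8 (log2 -2.26, adjusted p = 0.0430). The member of ISGF3 itself, IRF9, had a log2 difference of -0.45 and missed the threshold in the main fit (adjusted p = 0.0519). It was called lower in 9 of 20 alternatives, so it is not set apart from its targets by that miss.

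The counts of targets, like those of members, moved with the libraries used, as did the calls over all genes, which went from 656 to 80 without dEx1 replicate 1. Without that library the lower calls were 1 of 14, 5 of 21 and 3 of 32 in the 3 target lists, and without vector replicate 1 they were 4, 7 and 2. Without vector replicate 2 they were 6, 10 and 3. The medians moved less, staying between -3.84 and -3.02, -1.53 and -1.20, and -1.32 and -0.86 over all alternatives. With replicate 3 of all groups left out they were 14, 19 and 29. The fit of the 6 libraries alone gave 7, 13 and 5, the fit of all 27 libraries 11, 10 and 8, and leaving out FL replicate 1, FL replicate 2 or dEx1 replicate 2 gave 8, 9 and 11 of the 32 ISGF3 targets. DESeq2 called 14, 20 and 31.

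Upstream of the family, 7 of 19 sensors, adaptors and kinases were lower with dEx1 (median log2 -0.36), beside 3.64% of all genes tested. The RNA sensors were among them: DHX58 (log2 -1.89, adjusted p = 0.0403), TLR3 (log2 -1.83, adjusted p = 0.00883), IFIH1 (log2 -1.57, adjusted p = 0.0204) and DDX58 (log2 -1.09, adjusted p = 0.0449). TLR3, the endosomal sensor of double-stranded RNA, read 73.0, 67.4 and 66.0 CPM with vector and 20.8, 24.5 and 12.6 with dEx1. Of 8 receptors, JAKs and STAT partners, 1 was lower, JAK2 (log2 -1.02, adjusted p = 0.0121), and the list's median was -0.06. The interferon ligands had 2 of 3 tested lower, the IFNB1 and IFNL1 given above, and 0 of 3 without vector replicate 1 or 2 or dEx1 replicate 1 or 3. The sensor count was 2 without vector replicate 1 or dEx1 replicate 1, 3 without vector replicate 2 or with all 27 libraries in 1 fit, and 4 without dEx1 replicate 3, while JAK2 was not called without vector replicate 1 or dEx1 replicate 1 or with all 27 libraries in 1 fit.

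Of all genes tested, 3.64% were called lower, the share to set beside the 2 lists given here. Of 15 genes listed as inhibitors of IRF or interferon signalling, 4 were lower (median log2 -0.49): TNFAIP3 (log2 -2.98, adjusted p = 0.0229), NLRC5 (log2 -1.43, adjusted p = 0.0247), IRF2BPL (log2 -0.59, adjusted p = 0.0333) and FOXO3 (log2 -0.49, adjusted p = 0.0218). NLRC5 is also known as an activator of MHC class I genes. Of 6 tested lymphoid and myeloid partners of IRF4 and IRF8, 3 were lower although both factors are at 0 in this line: BATF2 (log2 -2.61, adjusted p = 0.0164), BATF3 (log2 -1.98, adjusted p = 0.0101) and BCL6 (log2 -0.94, adjusted p = 0.0435). No gene of the 8 lists was called higher, beside 0.831% of all genes tested. A count of 0 is near that share and says little about the lists. Without vector replicate 1 or 2 or dEx1 replicate 1, the lower calls numbered 0 inhibitors and 1 partner. Without dEx1 replicate 2 or 3 they were 2 inhibitors and 2 partners, and the fit of the 6 libraries alone called 0 inhibitors.

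**Figure D5:**
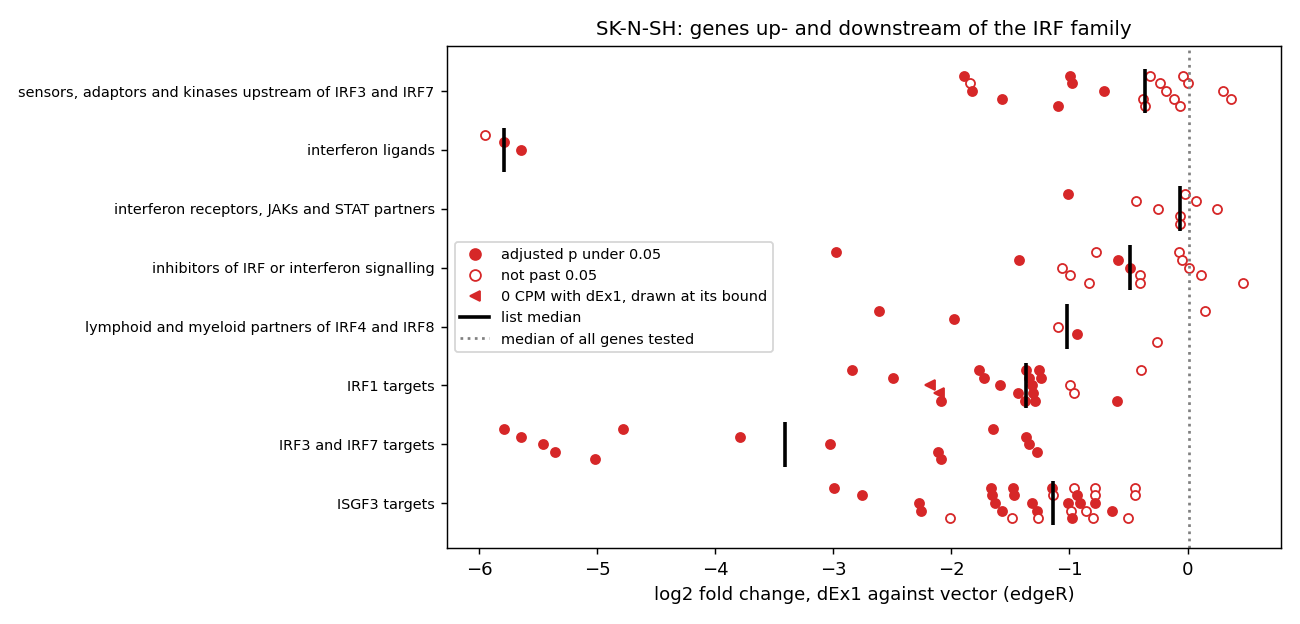
Fitted log2 fold change of each listed gene, SK-N-SH dEx1 against vector, by list; filled symbols passed an adjusted p of 0.05, arrowheads are genes at 0 with dEx1 drawn at their bound, black bars are list medians and the dotted line is the median of all genes tested. The IRF3 and IRF7 targets have the lowest median of the 3 target lists, -3.41, and all 14 are filled, beside 3.64% of all genes called lower.

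With FL against vector in SK-N-SH, edgeR called 0 of 14, 1 of 21 and 0 of 32 genes of the 3 target lists, beside 1.74% of all genes. The call was a higher IRF1 target, and the medians were -0.33, 0.16 and 0.03. At an unadjusted p under 0.05 there were 3, 6 and 2 genes, beside 2302 of all 14674 genes tested. DESeq2 called 1, 1 and 0 lower and 1, 2 and 1 higher. Of the interferon ligands, 3 of 3 tested were below 0 with FL (median log2 -2.06). By edgeR and by DESeq2 0 were called, and 2 had an unadjusted p under 0.05. IFNB1 read 1.78, 3.68 and 5.62 CPM with FL, each below the lowest vector library at 6.87 (log2 -2.06, SE 0.81, adjusted p = 0.263). Between the constructs, dEx1 against FL, 13 of 14, 19 of 21 and 26 of 32 targets were lower, beside 11.5% of all genes. The comparisons share their libraries in pairs and are set side by side for that reason only. In BON-1 edgeR and DESeq2 called 0 target genes with dEx1 against vector. At an unadjusted p under 0.05 there were 4, 2 and 3, beside 429 of all 14903 genes tested. The medians there were -1.04, -0.52 and -0.55 for IRF3 and IRF7, IRF1 and ISGF3 targets, beside -0.02 for all genes tested. Below 0 were 12 of 13, 14 of 17 and 32 of 32 tested genes, and the share of all genes below 0 was not counted. In QGP-1 the medians were -0.06, -0.16 and -0.07, again with 0 calls by both tools. At an unadjusted p under 0.05 there were 0, 0 and 1 genes, beside 527 of all 14522 genes tested.

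The baseline of the target genes differed between lines as well. In vector libraries, 13 of 14 IRF3 and IRF7 targets, 17 of 21 IRF1 targets and 32 of 32 ISGF3 targets were called higher in SK-N-SH than in BON-1, and none lower, beside 29.7% of all genes called higher. QGP-1 was called lower than BON-1 in 11, 13 and 28 of these genes and higher in 1, 2 and 2, beside 27.7% of all genes called lower and 23.7% higher. The order of the target lists was therefore SK-N-SH, BON-1, QGP-1, by these counts. The means of IRF2 and IRF9 had that order too, but IRF2 was not called between QGP-1 and BON-1 and IRF9 was not called between SK-N-SH and BON-1. IRF1 and IRF7 were lowest in BON-1 by their means, and IRF3 was highest there.

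Finally, each member above 2 CPM in SK-N-SH was compared with 11253 other genes by the Pearson correlation of log2 CPM over 27 libraries after removing each line's mean. These are descriptions, since the libraries share plasmid groups and replicate numbers. IRF1 was most like N4BP1 (r = 0.96), HSH2D (0.96) and SLFN5 (0.94). Within single lines, each over 9 libraries, the likeness of IRF1 to N4BP1 was 0.98 in SK-N-SH, 0.96 in BON-1 and 0.71 in QGP-1. IRF9 was most like NLRC5 (0.90), IFITM3 (0.89) and GRINA (0.87), and IRF7 most like SAMD9L (0.85), LOC100499489 (0.84) and PPP1R15A (0.83).

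The likeness of IRF9 to NLRC5 held a value of at least 0.86 in every line, while that of IRF7 to SAMD9L ran from 0.97 in SK-N-SH to 0.41 in QGP-1. IRF2 was most like TREX1 (0.80), SENCR (0.78) and HES4 (0.78), but its likeness to SENCR was 0.93 in SK-N-SH and -0.27 in QGP-1. MRPL21 (0.84) and MRPL4 (0.83) were among the 3 genes most like IRF3, and IRF5 was most like DCP1A (0.82), KLKP1 (0.79) and ISL2 (0.78). Within lines, the likeness of IRF3 to MRPL21 was 0.90 in SK-N-SH and 0.94 in QGP-1 but -0.14 in BON-1, while that to MRPL4 was at least 0.74. The likeness of IRF5 to DCP1A was 0.27 in BON-1, and that to ISL2 was 0.14 in QGP-1. No gene was among the 3 closest of more than 1 member.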

How the data were processed

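Messenger RNA was sequenced from TruSeq libraries. Per the submitters' processing notes, Trimmomatic, HISAT2 and StringTie were used with hg19. Their versions, the step from StringTie to counts, the gene annotation and whether strand was used are not given in the sources used here. The authors deposited estimated counts per gene as whole numbers, 1 column per library. Low values heap at 5 (7317 values at 5, against 4436, 3539, 3600 and 4312 at 1 to 4), so what 1 fragment is worth is not known. The floor of 15 units equals 3 fragments on the assumption of 5 units per fragment, and covers counting error only. Of 23234 rows, 4 repeated another symbol's line with identical values.

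R 4.3.3, edgeR 4.0.16 and DESeq2 1.42.0 were used. Each line's 9 libraries were fitted together after filterByExpr and TMM scaling. edgeR's quasi-likelihood F test was run with Benjamini-Hochberg adjustment over all genes tested and a threshold of 0.05. Contrasts between lines and differences of effects came from 1 fit of all 27 libraries. SE is the absolute log2 fold change divided by the square root of F. CPM are scaled over 16883 genes. p-values measure the spread between these samples, which may be partly technical. The tests were tried on simulated data with known changes.

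Members and lists were chosen with earlier results of these data known. Some genes are not reported here. Every member described is named, with up to 4 genes past the threshold per list by size of change, in SK-N-SH dEx1 against vector. MAML3 is given as the check of the vector label against FL and dEx1, which it does not separate from each other. The likeness of genes takes the 3 highest correlations at a mean of at least 2 CPM in SK-N-SH. Alternatives were another filter, DESeq2 scaling and test, a replicate block, a robust spread, counts divided by 5, fits of fewer or more libraries and leaving out each library. Same-numbered libraries deviated together with a correlation over 0.1 for every number in BON-1 (lowest 0.114) and, in QGP-1, between its FL and dEx1 groups (lowest 0.228). In SK-N-SH the lowest was 0.0460 and in the other QGP-1 comparisons -0.172, so their numbers were not taken as pairs. In SK-N-SH only replicate 1 was under 0.1 (0.0460 to 0.0971), while replicates 2 and 3 had 0.251 to 0.458. What same-numbered SK-N-SH libraries share is thus left out of the main fit, and the replicate block is the alternative that takes it in.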

Additional observations from a re-analysis of the deposited data

How the results depend on the processing

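Over 132 member values, 2327 alternative values were computed. No member past the threshold changed sign; of 315 alternatives of called values 26 lost the call, 22 others gained one, and 127 values not past the threshold changed sign. For SK-N-SH dEx1 against vector, 2 called members became 4 with the DESeq2 test, 4 with a replicate block, 4 with a term for replicate 3 and 4 with replicate 3 of all groups left out, the last chosen after seeing the data; leaving out 1 library gave 0 to 4. All genes called there numbered 656, and 80 to 3267 over the alternatives. For dEx1 against FL, 4 became 2 with the 6 libraries alone and 1 to 4 without 1 library (all genes 3226, range 1857 to 5138). For FL against vector the genes called were 255, range 21 to 1168. For the dEx1 effect in SK-N-SH against BON-1, 0 became 1 with the replicate block (IRF1, adjusted p = 0.0454) and 0 to 1 without 1 library. Against QGP-1, 0 became 1 with the DESeq2 test, 2 with the replicate block (IRF1 and IRF2) and 0 to 2 without 1 library. The cause of these shifts was not tested. In BON-1, where numbers pair, the paired fit called 0 members, as did the replicate block in QGP-1. Among ISGF3 targets lower with dEx1 in SK-N-SH, 19 became 30 with the replicate block and 31 with the term for replicate 3, and among the listed inhibitors 4 became 8 with either and with DESeq2, and 1 was called higher with the first 2. DESeq2 scaling moved the median of all genes by less than 0.1 in every comparison. Where 1 library leaves a group of 2, its spread is pooled with the other groups. Depth limits IRF4, IRF8 outside BON-1, IRF5 in SK-N-SH, and IRF7 in BON-1 (70 to 205 units), on which its fold differences between lines rest.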
